A study of Mus musculus with 2 samples.

Results

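Transcription factor genes that pattern body regions other than the cerebral cortex had closed promoters in this tissue. The set holds 53 genes outside the Hox clusters, of the Pax, Irx, sine oculis (Six2, Six3, Six6), Nkx, Gata, T-box, LIM-homeobox, other homeobox and basic helix-loop-helix (bHLH) families, out of 21938 protein-coding genes. Genes were chosen for known roles in hindbrain, midbrain, mesoderm or endoderm, and the rule itself uses no measured value, though the list was drawn up with earlier results of these data known. Chromatin was profiled by DNase-seq, in which DNase I cuts accessible DNA, in the left cerebral cortex from 2 females, 10 days old, of B6CASTF1/J. Such mice are first-generation hybrids of C57BL/6J and CAST/EiJ, and cuts were not assigned to parental alleles here. The 2 libraries, biological replicates 1 and 2, formed 1 group with no treatment given in the labels, which list 1 donor identifier for both. No conditions were compared, and genes are not replicates, so the results are descriptions without tests.

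Early in development these factors give embryonic regions their identity. Pax5 and the En and Gbx genes act around the boundary of midbrain and hindbrain, Lhx3, Isl1 and Mnx1 in motor neurons, Gata and Tbx genes in blood, heart and limbs, and Myod1 and Myog in skeletal muscle. Their promoters are mostly rich in CpG dinucleotides, and in tissues that do not use them such promoters are classically held by Polycomb complexes, which were not measured here. Several of them, among them Six3, Six6, Otx2 and Nkx2-1, also act in the early forebrain.

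The following sequences show the few accessible sites at or beside these genes and, for contrast, a pair of closed promoters. All are read 5′ to 3′ on the strand of the named gene. The Lhx3 stretch is the part of its replicate 2 peak upstream of the start, at chr2:26208290-26208400 on the minus strand of mm10. The Tbx3 stretch is the upstream part of its replicate 2 peak, at chr5:119670501-119670668 on the plus strand. The Pax5 stretch is what the peaks of both libraries share, at chr4:44704421-44704680 on the minus strand. The Irx5 stretch, chr8:92356101-92356300 on the plus strand, is the strong peak upstream of that gene. The Gbx1 stretch, chr5:24530101-24530340 on the minus strand, is a strong distal peak. In these 5, capitals mark bases inside a footprint, a short stretch protected from cutting, of either library.
Lhx3: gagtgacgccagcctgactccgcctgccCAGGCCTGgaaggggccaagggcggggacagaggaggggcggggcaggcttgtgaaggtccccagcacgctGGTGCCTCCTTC
Tbx3: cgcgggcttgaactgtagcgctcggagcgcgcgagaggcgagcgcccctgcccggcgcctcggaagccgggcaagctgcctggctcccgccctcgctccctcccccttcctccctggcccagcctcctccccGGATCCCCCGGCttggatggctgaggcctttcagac
Pax5: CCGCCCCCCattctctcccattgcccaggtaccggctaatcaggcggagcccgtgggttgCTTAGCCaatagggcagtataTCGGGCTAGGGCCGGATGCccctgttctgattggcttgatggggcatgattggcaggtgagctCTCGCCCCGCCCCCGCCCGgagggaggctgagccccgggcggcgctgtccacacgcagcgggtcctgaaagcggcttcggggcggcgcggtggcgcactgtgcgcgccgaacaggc
Irx5: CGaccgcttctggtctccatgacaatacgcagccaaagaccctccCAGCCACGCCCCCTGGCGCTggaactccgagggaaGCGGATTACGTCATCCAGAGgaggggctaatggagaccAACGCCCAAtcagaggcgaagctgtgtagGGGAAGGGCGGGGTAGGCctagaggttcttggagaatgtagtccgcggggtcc
Gbx1: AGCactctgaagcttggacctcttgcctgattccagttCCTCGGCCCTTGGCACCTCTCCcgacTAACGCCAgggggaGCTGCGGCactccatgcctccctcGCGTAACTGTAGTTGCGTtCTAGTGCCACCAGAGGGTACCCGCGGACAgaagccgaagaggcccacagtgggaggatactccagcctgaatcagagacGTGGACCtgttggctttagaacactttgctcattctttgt
Twist1 and En1 had no promoter peak in any list. For them the bases just before the start are given, at chr12:33957421-33957670 and chr1:120602237-120602417, both on the plus strand of GRCm38.p6 and taken from RefSeq. Here capitals mark CpG dinucleotides, 18 in Twist1 and 15 in En1.
Twist1: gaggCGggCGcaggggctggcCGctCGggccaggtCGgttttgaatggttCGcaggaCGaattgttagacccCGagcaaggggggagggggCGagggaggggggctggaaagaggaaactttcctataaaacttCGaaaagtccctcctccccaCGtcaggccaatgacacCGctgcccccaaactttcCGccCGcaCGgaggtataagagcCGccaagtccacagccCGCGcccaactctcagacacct
En1: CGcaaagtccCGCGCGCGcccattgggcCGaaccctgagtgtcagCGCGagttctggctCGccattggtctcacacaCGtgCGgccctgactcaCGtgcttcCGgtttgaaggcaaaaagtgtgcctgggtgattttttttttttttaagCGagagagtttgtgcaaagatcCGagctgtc

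Peak numbers were similar in the 2 libraries. Replicate 1 had 60071 peaks in the smaller of its deposited lists and 109563 in the larger, and replicate 2 had 70563 and 121943. Signal, 1 value per peak on a scale of the authors that the sources used here do not state, ran higher in replicate 2, with a median at open coding promoters of 2.30 in replicate 1 and 3.46 in replicate 2. Markers checked the tissue label by promoter peaks in both smaller lists. Of 7 cortical neuron genes 3 were open, namely Neurod2, Neurod6 and Camk2a, and 5 were in the larger lists. Peaks in both smaller lists were found for 1 of 5 interneuron, 2 of 5 astrocyte, 3 of 5 oligodendrocyte lineage and 1 of 4 microglia genes. They were found for 1 of 5 endothelial and mural genes, 2 of 4 genes of meninges and fibroblasts, 1 of 4 red blood cell genes and 0 of 4 choroid plexus genes.

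A promoter was called open when each library had a smaller-list peak within 500 bp of any annotated start of the gene, and closed when neither had. Of the 53 regulators, 3 were open (5.66%), namely Pax5, Tbx3 and Lhx3, against 55.2% of all coding genes. The other 50 were closed, against 40.2% of all coding genes. No regulator had a smaller-list peak in 1 library alone, a state also rare elsewhere, at 1024 of the 21938 coding genes. In bulk tissue, few cells with an open promoter and a weak opening in many cells cannot be told apart.

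Pax5, a factor of the midbrain-hindbrain boundary and of B lymphocytes (chromosome 4, 44524757 to 44710487), reached 1.02 in replicate 1 and 1.05 in replicate 2. Its mean of 1.03 ± 0.0206 (SD, n = 2) stood at the 11.4th percentile of open coding promoters. The peak did not lie at the outermost start of the gene. Its edge was 415 bp in replicate 1 and 404 bp in replicate 2 from the start of an internal transcript, in an intron of Pax5 and an exon of 5730488B01Rik, an unclassified transcript on the other strand. It held 4 footprints in replicate 1 and 2 in replicate 2. None of them came within 500 bp of a Pax5 start.

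Tbx3, a T-box factor of limb, mammary gland and heart conduction system (chromosome 5, 119670669 to 119684724), had 0.962 in replicate 1 and 1.14 in replicate 2. The mean of 1.05 ± 0.124 (SD, n = 2) stood at the 11.8th percentile of open promoters. Here the peak covered the start itself in both libraries, at 119670601 to 119670917 in replicate 1 and 119670501 to 119670800 in replicate 2. The antisense transcript Tbx3os1 starts within 500 bp of the replicate 1 peak, and cuts carry no strand that would tell the 2 starts apart.

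Lhx3, a LIM-homeobox factor of pituitary and motor neurons (chromosome 2, 26200212 to 26208289), was the weakest of the open regulators. It had 0.526 in replicate 1 and 0.728 in replicate 2, a mean of 0.627 ± 0.143 (SD, n = 2) at the 2.90th percentile of open promoters. Its peak lay over the outermost start, at 26208223 to 26208328 in replicate 1 and 26208181 to 26208400 in replicate 2. The median of the 3 means was 1.03, against 2.89 over all open coding promoters, so all 3 regulators lay low among open genes. Counted in whole steps of signal, the smallest unit of each library, Pax5 had 147 and 138, Tbx3 139 and 150, and Lhx3 76 and 96 in replicates 1 and 2.

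The larger lists added no regulator with a peak in both libraries. They again held 3 in both, against 61% of all coding genes, and 8 more in 1 library only, against 3.98% of all coding genes. The 4 found in replicate 1 alone were Pax9, a factor of teeth and thymus, with a signal of 0.311, the Iroquois genes Irx1 with 0.297 and Irx4, a ventricular factor of the heart, with 0.249, and Gata6, an endoderm and heart factor, with 0.367. The 4 of replicate 2 alone were Pax2, a kidney, ear and midbrain-hindbrain factor, with 0.341, the eye and forebrain factor Six3 with 0.379, the hindbrain boundary factor Gbx2 with 0.356, and Isl1 with 0.523. All 8 lay below the median signal of their library's larger list, 0.540 in replicate 1 and 0.599 in replicate 2. Peaks of Irx4 and Isl1 covered a start. That of Pax9 lay 6 bp from an internal start, and those of Pax2, Six3 and Gata6 also lay at internal starts. The remaining 42 regulators had no promoter peak in any list.

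**Figure D1:**
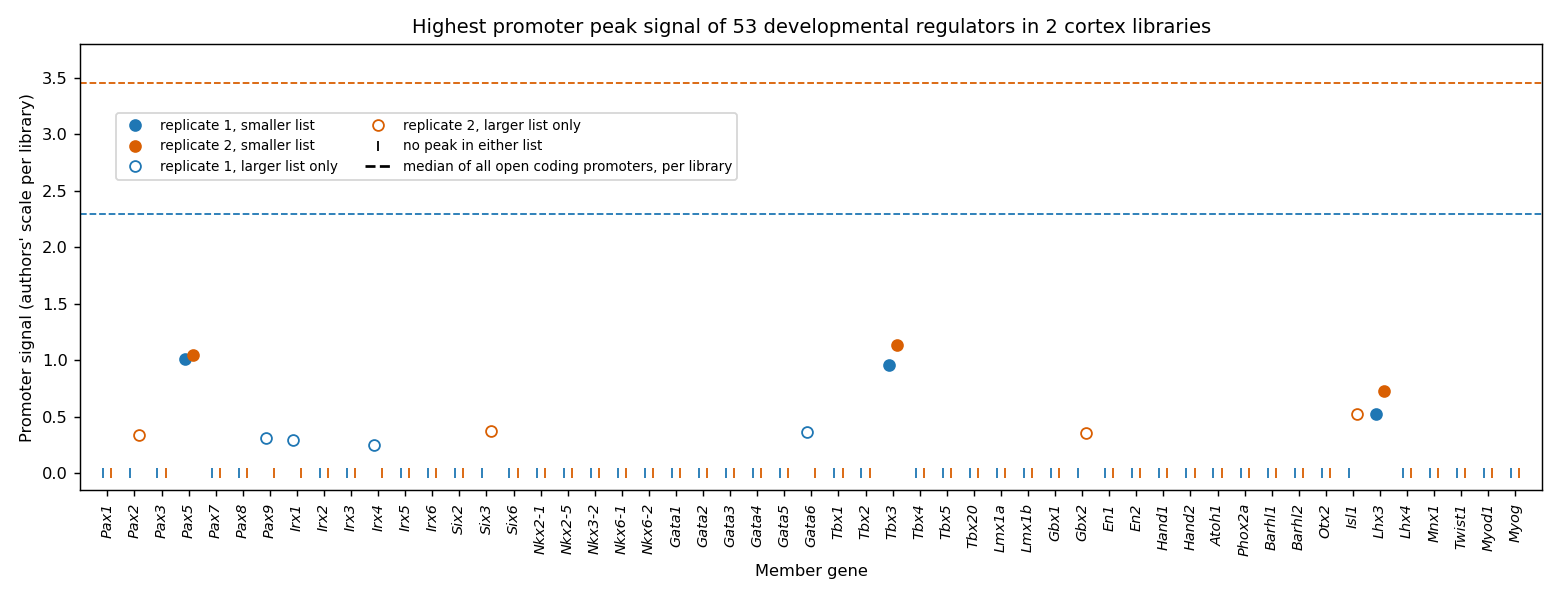
Highest promoter peak signal (authors' scale, vertical axis) of each of the 53 regulators in replicate 1 and replicate 2. Filled points are smaller-list peaks, open points peaks of the larger list alone, ticks at 0 mark libraries without a peak, and dashed lines mark the medians of open coding promoters, 2.30 and 3.46. Only Pax5, Tbx3 and Lhx3 have filled points, and all points lie far below the lines.

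By family, 1 of 7 Pax, 1 of 6 T-box and 1 of 5 LIM-homeobox regulators were open. All 6 Irx, 3 sine oculis, 5 Nkx, 6 Gata, 9 other homeobox and 6 bHLH regulators were closed. The Nkx genes, among them Nkx2-1 of ventral forebrain, thyroid and lung and Nkx2-5 of the heart, had neither a larger-list peak nor a footprint at any start. Split by textbook role, regulators of nervous system regions had 2 of 24 open, and those of the rest of the body 1 of 29.

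The closed state did not follow the relation with CpG content seen over all coding genes. The median CpG observed over expected ratio of the promoters, in 1 kb around the outermost start, was 0.685 for the regulators and 0.552 for all coding genes. Weighting each CpG decile by the number of regulators in it, 73.8% of coding genes were open, which would be 39.1 of 53. Of the 41 regulators in deciles 6 to 10, 2 were open. No regulator of decile 6 was open (0 of 11), against 74.1% of all coding genes of that decile. In decile 7 there was 1 of 8 against 84.0%, in decile 8 0 of 9 against 88.2%, in decile 9 1 of 7 against 90.5% and in decile 10 0 of 6 against 92.0%. Decile 10 held Irx1, Irx2, the nephron progenitor factor Six2, the oligodendrocyte and motor neuron factor Nkx6-2, En2 and Barhl2, all closed. Lhx3, the third open regulator, lay in decile 4 (1 of 4 regulators against 32.3%).

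**Figure D2:**
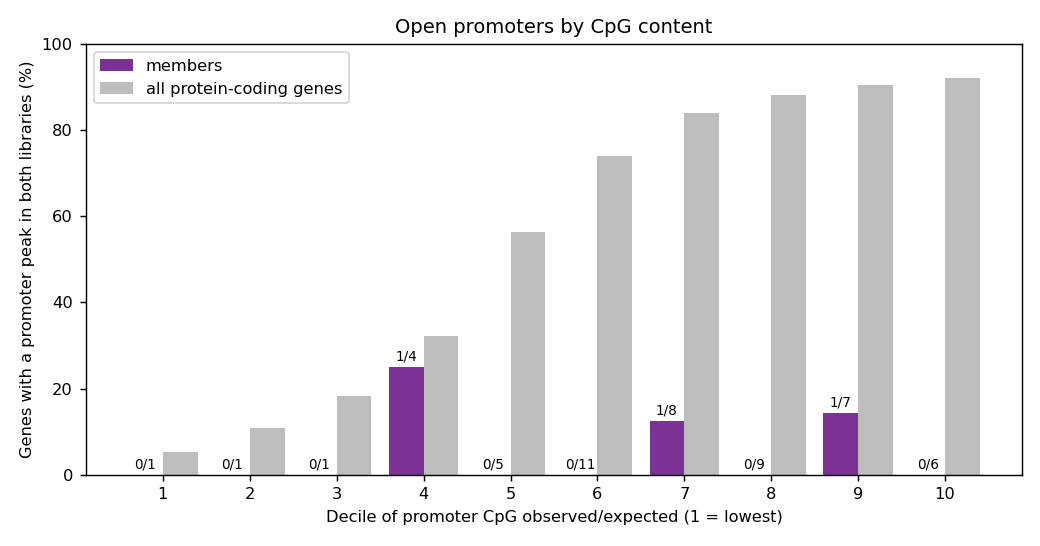
Share of genes with a promoter peak in both libraries (percent, vertical axis) by decile of promoter CpG observed over expected (1 is lowest), for the 53 regulators ("members") and all coding genes. Fractions give open regulators over regulators in each decile. The grey bars climb to 92.0% in decile 10, where 0 of 6 regulators were open.

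Cortical regulators of like CpG content were mostly open when any annotated start counted. A list of 29 genes of cortical identity and neuron differentiation had a median CpG ratio of 0.689, close to that of the 53 regulators. Of these 29, 19 were open (65.5%). The median number of starts was 4 in this list and 2 in the 53 regulators. With the outermost start only, 14 of the 29 and 2 of the 53 were open, against 49.5% of all coding genes. The highest promoter signals of the cortical list were those of Sox4, with 6.63 ± 1.41, Pou3f3, with 6.34 ± 1.64, and Zbtb18, with 5.65 ± 1.68 (SD, n = 2 each). Relatives of the 53 regulators from the same gene families stood between, with 8 of 37 open (21.6%) at a median CpG ratio of 0.571. This count depended on the lists, with 13 open without replicate 1 and 15 (40.5%) in the larger lists, while the 53 regulators had 3 open in both cases. The relatives were led by Mga, a T-box and MAX-binding repressor, with 4.64 ± 1.80, the cortical selector Lhx2, with 2.74 ± 0.85, and Pax6, with 2.15 ± 0.200 (SD, n = 2 each). The lists share 4 genes, and without these 6 of 33 relatives were open (18.2%). The median signal of open promoters was 1.03 for the 53 regulators, 1.56 for their relatives and 2.15 for cortical regulators.

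**Figure D3:**
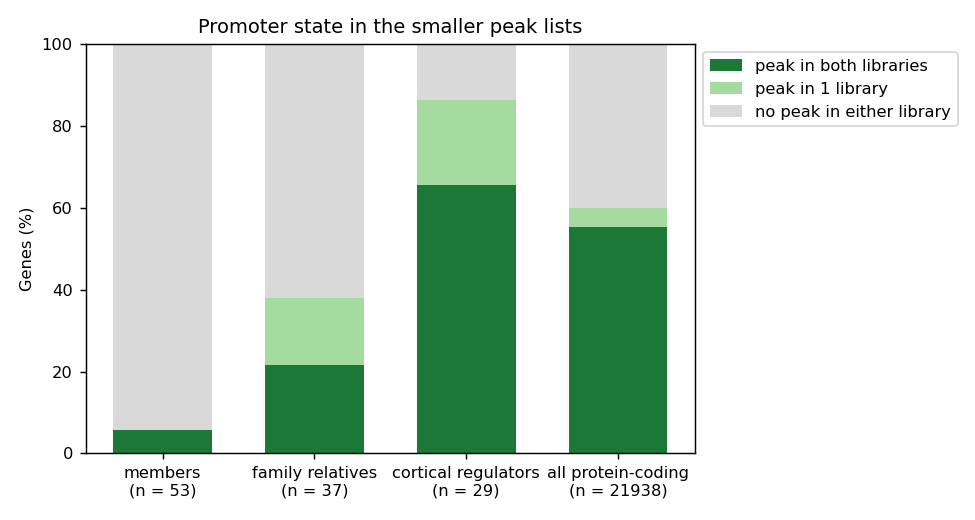
Share of genes (percent, vertical axis) with a smaller-list promoter peak in both libraries, in 1 library or in neither, for the 53 regulators ("members"), 37 family relatives, 29 cortical regulators and all 21938 coding genes. The dark green share is 5.66% for the regulators, 21.6% for relatives, 65.5% for cortical regulators and 55.2% for all coding genes. In the larger lists 40.5% of relatives have a peak in both libraries.

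Footprints at these promoters were as scarce as peaks. Of the 53 regulators, 2 had a footprint within 500 bp of a start in both libraries, against 58.2% of all coding genes. Tbx3 had 4 in replicate 1 and 2 in replicate 2, and Lhx3 had 1 and 3. Another 4 regulators had footprints in 1 library alone, namely Pax9 and Gata6 in replicate 1 and Pax2 and Six3 in replicate 2. None of the 15 footprints listed at these promoters overlapped one of the other library. At Pax9, Gata6, Pax2 and Six3 none could, since the other library had no footprint there. The share of overlapping footprints over all promoters was not computed, so this count has no background. In the printed stretch of the Pax5 peak, 1 of the 3 replicate 1 footprints overlapped one of replicate 2. In the Irx5 and Gbx1 stretches, which are strong peaks, 3 of 4 and 3 of 6 did.

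The deposited false discovery rate (FDR) of the cut rate gives a value below the level of peaks, since each position under 0.05 is listed. Of the 53 regulators, 41 had no such position within 500 bp of any start in either library (77.4%), against 34% of all coding genes. The lowest FDR at open regulators was 2.26e-14 in replicate 1 and 5.66e-07 in replicate 2 for Pax5, 9.44e-11 and 6.74e-11 for Tbx3, and 8.44e-05 and 3.46e-09 for Lhx3. Among closed regulators, Isl1 had 0.0493 in replicate 1 and 0.00304 in replicate 2. Twist1, a mesoderm and neural crest factor, had 0.044 over 19 bp in replicate 2 alone. The other closed regulators with a listed position were the remaining 7 with a larger-list peak.

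How empty these promoters were also shows in the length of sequence under an FDR of 0.05. Tbx3 had 517 bp in replicate 1 and 635 bp in replicate 2, Pax5 433 and 135 bp, and Lhx3 197 and 412 bp. Closed regulators reached at most 118 bp, at Gata6 in replicate 1, and 184 bp, at Isl1 in replicate 2. The medians of the other open coding genes were 787 and 824 bp. Lengths add up over all starts of a gene, with a median of 5 starts in those genes and 2 in closed regulators. Closed regulators and the other closed coding genes both had a median length of 0 bp in each library. Among closed promoters, 41 of 50 regulators had no listed position (82%), against 84.7% of the other closed coding genes. In CpG deciles 6 to 10, a restriction added after the data were examined, 31 of 39 closed regulators had none (79.5%), against 55.1% of the other closed genes.

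Promoter letters were read from the RefSeq windows of 250 bases before to 50 after a start, which matched 40 of the 53 regulators with 49 windows. The GC box GGGCGG, on either strand, was in 32 windows of regulators (65.3%) and in 47.8% of all 20150 windows. These letters hold a CpG themselves, and windows were not matched for CpG content, which was higher in the regulators. TATAAA was in 4 windows (8.16%), against 12.1% of all, and CCAAT in 18 (36.7%), against 37.8%. Each motif was counted on its own, so matches of different motifs may overlap, and a match is not a bound site.

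Most regulators had an accessible site in their surroundings, but on average they had fewer of them than all coding genes, open ones included. A shared distal peak overlapped between the libraries by at least 1 bp and had its midpoint over 1 kb from every annotated start of any gene. Within 50 kb of a start, 39 of 53 regulators had at least 1 (73.6%), against 70.1% of all coding genes. The regulators had a median of 1 and a mean of 1.42, all coding genes a median of 1 and a mean of 1.84. The count depended on the distance: within 20 kb, 18 regulators had one (34.0%), against 46.2% of all coding genes, so that the regulators lay below the background instead of above it. With the gene body extended by 50 kb the shares were 73.6% and 73.8%. All 5 Nkx, all 3 sine oculis, 5 of 7 Pax, 5 of 6 T-box, 4 of 5 LIM-homeobox, 7 of 9 other homeobox and 5 of 6 bHLH regulators had one within 50 kb. Gata genes had 3 of 6 and Irx genes 2 of 6. Regulators of nervous system regions had one in 20 of 24 and those of the rest of the body in 19 of 29, with means of 1.88 and 1.03.

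Closed promoters with an accessible site nearby were the usual state of the regulators. Of the 53, 36 combined a closed promoter with a shared distal peak within 50 kb, against 22.1% of all coding genes. This gap lay in the closed state, at 94.3% against 40.2%. A shared distal peak within 50 kb was about as frequent in both, at 73.6% against 70.1%. Among closed genes, 36 of the 50 regulators had such a peak (72%), against 55.0% of the other closed coding genes, with means of 1.4 and 1.31. That contrast did not hold among genes of like CpG content. In deciles 6 to 10, 27 of 39 closed regulators had one (69.2%), against 73.9% of the other closed genes, with means of 1.38 and 1.98. Among the comparison lists, 14 of 23 closed relatives and 2 of 4 closed cortical regulators had one.

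Few sites lay close to the starts. In CpG deciles 6 to 10, the 39 closed regulators had 0.855 shared distal peaks per 100 kb and gene at 1 to 10 kb from the outermost start, 0.855 at 10 to 25 kb and 1.90 at 25 to 50 kb. The other closed genes of these deciles had 1.75, 1.71 and 1.72. The 2 nearer values of the regulators rest on 6 and 10 peaks, and that beyond 25 kb on 37. The nearest shared peak of any kind lay at a median of 33.4 kb from these regulators, against 11.8 kb from the other closed genes of deciles 6 to 10. Over all deciles these medians were alike, at 28.8 kb for the 50 closed regulators and 24.3 kb for the other closed genes.

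**Figure D4:**
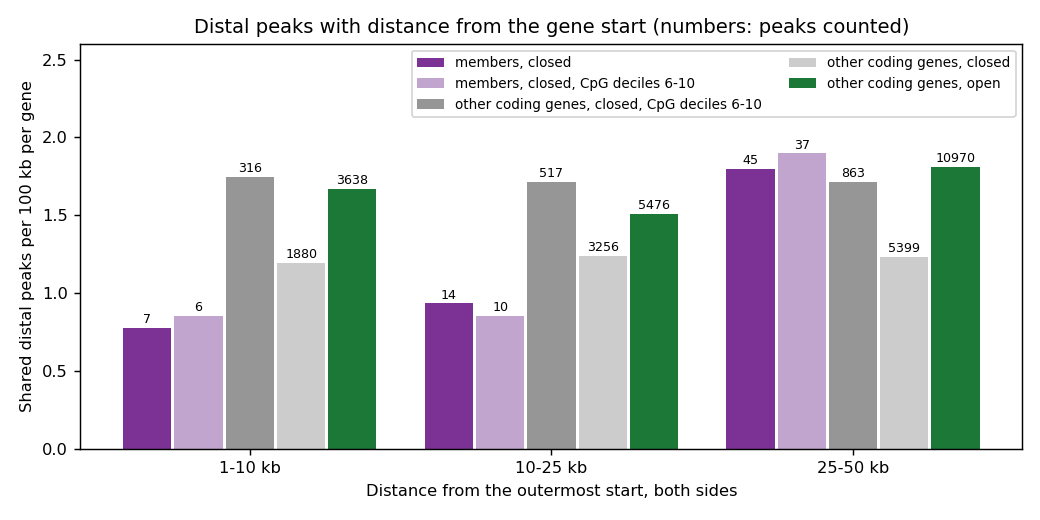
Shared distal peaks per 100 kb and gene (vertical axis) by distance from the outermost start, for the 50 closed regulators ("members"), the 39 of them in CpG deciles 6 to 10, and 3 sets of other coding genes. Numbers above the bars are peaks counted. The 39 regulators have 0.855 at 1 to 10 kb, from 6 peaks, and 1.90 at 25 to 50 kb, from 37 peaks.

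Open promoters of other coding genes were also sparse around these loci. An open coding promoter, their own included, lay within 50 kb of 12 of 53 regulators (22.6%), against 72.2% of all coding genes. This mostly repeats the state of a gene's own promoter, since 12101 of the 15840 coding genes counted were open themselves. Only closed genes bear on the neighbours. Of the closed regulators 9 of 50 had an open coding promoter within 50 kb (18%), against 36.6% of the other closed genes. In deciles 6 to 10 it was 4 of 39 (10.3%) against 50.3%. The nearest open coding promoter was 1322 kb from Irx1, 716 kb from Isl1, 696 kb from Irx2 and 690 kb from Irx5. It was 528 kb from Twist1 and 523 kb from Six3, and nearer than that at all other regulators. The closest to a closed regulator was that of Asb10, 13.3 kb from Gbx1, followed by that of Inppl1, 15.9 kb from Phox2a, a factor of autonomic neurons.

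Some regulators lay in wide stretches without accessible sites, as many closed genes do. No shared peak of any kind fell within 50 kb of a start of 11 of the 53 regulators, against 14.9% of all coding genes. Among closed genes these were 11 of 50 regulators (22%) against 36.0% of the others, and in deciles 6 to 10 they were 10 of 39 (25.6%) against 15.1%. The 11 were the neural crest and dorsal neural tube factor Pax3, Pax9, Irx1, Irx2, Irx4, the blood factor Gata2, Gata6, the heart factor Tbx20, Gbx2, Isl1 and Twist1. Around Twist1 (chromosome 12, 33957671 to 33959829) the stretch without a shared peak spanned 690 kb, and the nearest one lay 274160 bp from its start. It spanned 647 kb at Hand2, a heart and limb factor, 601 kb at Isl1, 554 kb at Gata6 and 521 kb at Irx1. Such stretches over 500 kb were found at 5 of 50 closed regulators (10%), against 26.4% of the other closed genes, and at 4 of 39 in deciles 6 to 10 (10.3%), against 2.82%. The stretch had a median of 115 kb at closed regulators and 114 kb at the other closed genes. At the other end, it spanned 19.7 kb at Lhx3 and 26.8 kb at Lmx1b.

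The 2 Irx clusters differed in this. On chromosome 13, Irx1, Irx2 and Irx4 lie 665 and 632 kb apart, and none had a shared peak within 50 kb. On chromosome 8, Irx3 and Irx6 had 1 shared distal peak each, and Irx5 had a strong peak close by. That peak, printed above, reached 3.39 in replicate 1 and 5.52 in replicate 2, over the median of open coding promoters in each library. It lay 1434 bp upstream of the start of Irx5 (chromosome 8, 92357625 to 92376286), at the start of Crnde, a long noncoding RNA gene, and held 4 footprints in each library. The promoter of Irx5 itself had no peak in any list and no position under an FDR of 0.05.

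**Figure D5:**
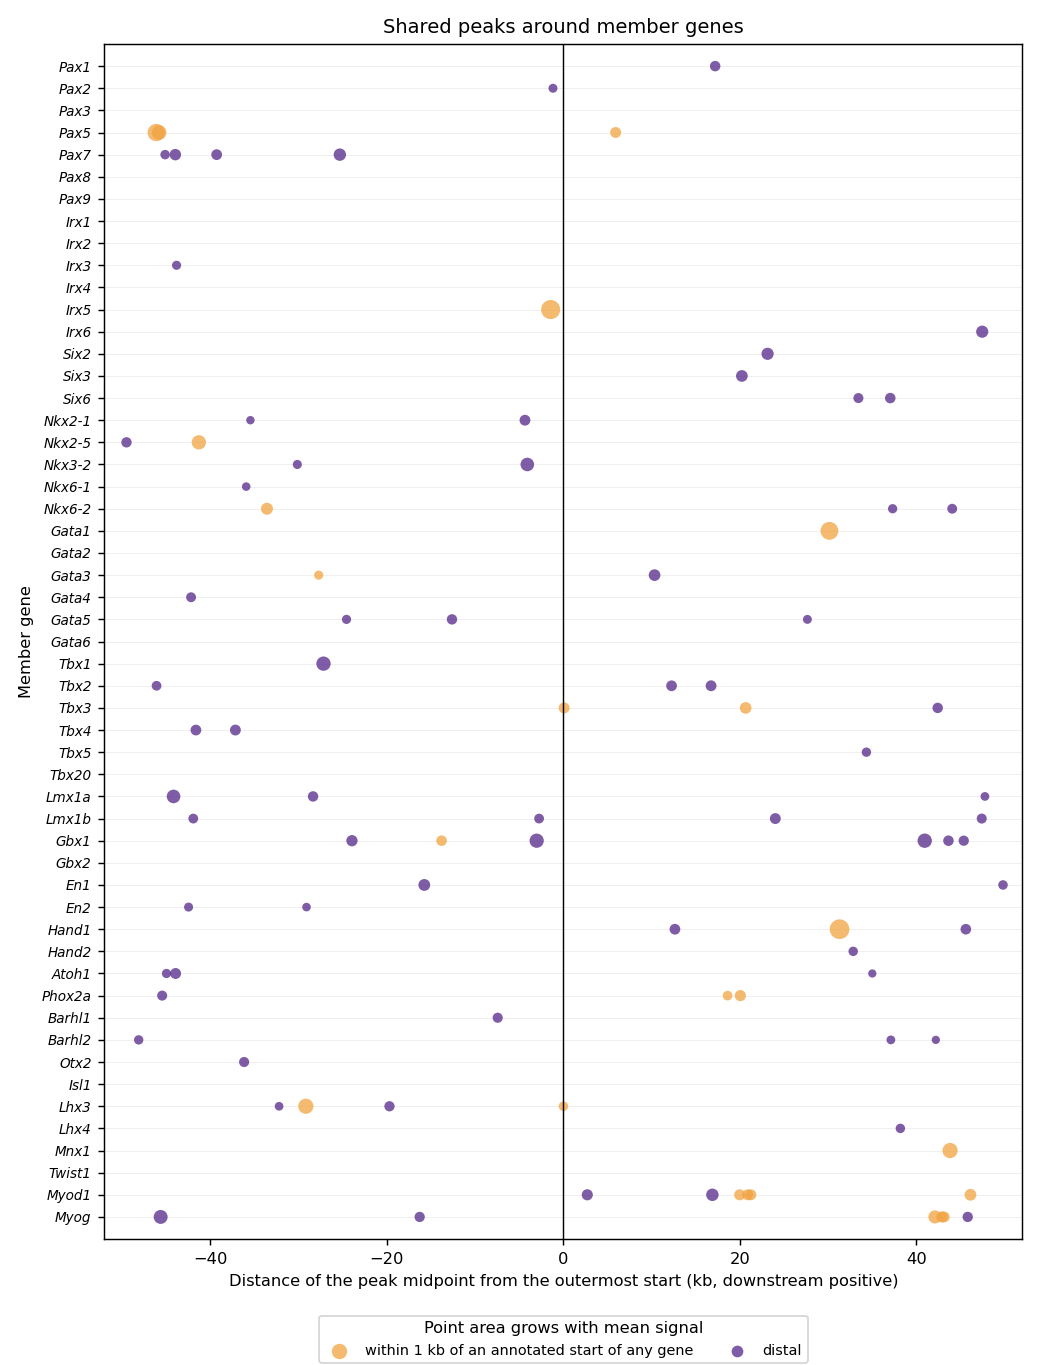
Shared peaks within 50 kb of the outermost start of each of the 53 regulators (rows, "member gene"), by distance in kb with downstream positive. Purple points are distal peaks, orange points peaks within 1 kb of an annotated start of any gene, and point area grows with mean signal. Of 93 points, 69 are distal and 24 lie near a start, and a peak within reach of both Tbx2 and Tbx4 is drawn at each. No point is drawn for 12 regulators, among them Pax8, whose distal peak lies near another of its starts.

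Gbx1, which patterns hindbrain and spinal cord, had the most shared distal peaks, 5 within 50 kb. Its 2 strongest were the highest of the set by mean with that of Tbx1. The peak printed above, 3019 bp upstream of its start (chromosome 5, 24502757 to 24527202), had 1.92 in replicate 1 and 2.49 in replicate 2. It held 6 footprints in replicate 1 and 4 in replicate 2. The other, at chr5:24486181-24486360, had 1.93 and 2.54 and lay 40931 bp downstream of the start, in an intron of Agap3, an Arf GTPase-activating protein gene whose own start was 6099 bp away.

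Pax7, a muscle satellite cell and dorsal neural tube factor (chromosome 4, 139737062 to 139833528), had 4 shared distal peaks, all upstream at 25313 to 45102 bp and between genes. Their signals were 0.547 to 1.21 in replicate 1 and 0.682 to 1.80 in replicate 2. Lmx1b, a factor of dopamine and serotonin neurons and limbs (chromosome 2, 33560965 to 33640511), also had 4. Its nearest lay 2746 bp upstream with 0.678 and 0.728, in an exon of C130021I20Rik, and 2 others lay in its own introns. The regulators with 3 each were the endoderm and heart factor Gata5, Tbx2 of limb and heart, Lmx1a of midbrain dopamine neurons, Atoh1 of cerebellar granule cells, the retina and spinal cord factor Barhl2, Lhx3 and Myog.

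The strongest sites of Tbx1, Myog and Lmx1a were nearer to another coding gene. The strongest peak of Tbx1, a pharyngeal arch factor (chromosome 16, 18580979 to 18590671), had 2.12 in replicate 1 and 2.33 in replicate 2. It lay 27164 bp upstream of Tbx1 and 3805 bp from the start of Gp1bb, a platelet glycoprotein gene. That of Myog (chromosome 1, 134289989 to 134292548) had 1.56 and 2.59, 45606 bp upstream and 8952 bp from the adenosine receptor gene Adora1. These assignments rest on distance, and which gene a site acts on was not measured.

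The strongest of Lmx1a (chromosome 1, 167689237 to 167848741) had 1.74 in replicate 1 and 2.16 in replicate 2, 44146 bp upstream and 26782 bp from Rxrg, a retinoid X receptor gene. Nkx3-2, a cartilage factor (chromosome 5, 41761483 to 41764501), differed: its strongest peak, with 1.69 and 2.15, lay 4080 bp upstream, and no other coding start was nearer. Replicate 2 was higher at each of these sites, as at coding promoters in general.

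A few closed regulators had a shared distal peak within 5 kb of a start, beside Gbx1, Nkx3-2 and Lmx1b. At Gata3, a T-cell and sympathetic neuron factor, it lay in an intron 1101 bp from an internal start, with 0.989 in replicate 1 and 1.55 in replicate 2. Myod1, which commits cells to muscle, had 0.892 and 1.29 at 2714 bp downstream, just past the end of the gene. Nkx2-1 had 1.10 and 0.925 at 4343 bp upstream, in an exon of the noncoding gene Gm26973. Pax2 had the weakest, with 0.464 and 0.523 at 1171 bp upstream. None of these genes had a smaller-list peak within 500 bp of a start.

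In all, 72 shared distal peaks lay within 50 kb of the regulators, 3 of them in the windows of neighbours, namely Tbx2 with Tbx4 and Six2 with Six3. For 42 of the 72 (58.3%) the nearest coding start was that of a regulator, 24 lay inside the body of another gene and 9 inside that of a regulator. Their median signal was 0.709 in replicate 1 and 0.917 in replicate 2, against 0.803 and 0.985 over all 31956 shared distal peaks. Between genes lay 54.2% of them, against 48.7% of all, in introns 38.9% against 46.2%, and in exons 6.94% against 5.14%. A footprint in both libraries was in 81.9% of the peaks near regulators and in 88.2% of all.

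Motifs were matched on both strands over the whole peak, each on its own, so that matches may overlap. The CTCF consensus was in 12 of the 72 peaks (16.7%) and in 10.6% of all shared distal peaks. Of these 12, 3 lay near Pax7, 2 each near Lmx1b and Gbx1, and 1 each near Hand1, Nkx2-1, Six6, Lhx3 and Gata5. GGGCGG was in 13.9% of the peaks near regulators against 7.29% of all, without matching for CpG content. E-box letters were about as frequent, with CAGATG in 23.6% against 24.0% and CAGCTG in 18.1% against 18.3%, and so was the AP-1 site TGANTCA, in 6.94% against 7.15%. The nuclear factor I palindrome was in none of the 72 and in 0.116% of all.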

How the data were processed

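DNase-seq was measured in 2 libraries of 1 group, and peaks, footprints and FDR lists were made from each library's own filtered alignments on mm10, per the deposited file descriptions. For aligner, callers and thresholds no source used here gives a name or value. Peak signal is a deposited value, a whole multiple of 0.00692 in replicate 1 and 0.00758 in replicate 2 (100% within 0.01), so differences between the libraries depend on an unstated scaling. The deposited p-value of footprints is 0.01 throughout, and the deposited FDR values are all under 0.05. Depth is given by the peak, footprint (212785 and 224029) and signal values, and total reads are unknown. The labels give separate biological replicates but 1 donor identifier, so SDs join animal and technical spread.

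Genes came from GENCODE M21 on GRCm38.p6, the assembly of mm10, with 21 chromosomes compared, and the mitochondrial chromosome was left out. Overlaps were computed with bedtools 2.31.1, pandas 2.3.3 and pysam 0.24.0 in Python 3.11.15, and the counting was tested on simulated data. Promoter CpG content was split into 10 deciles over coding genes. The 53 regulators, comparison lists, markers and rules were chosen with earlier results of these data known. Named in full were regulators with a promoter peak in any list, the 5 with most and the 5 with the strongest shared distal peaks, with ties, and at the lists the 3 highest and the closed genes if at most 5; of the closed cortical genes none is reported here by name. Names in the distance results, such as those of wide stretches, short distances, FDR values and the Irx5 peak, were chosen after their values were seen. Alternatives were other windows, starts, peak lists, overlaps and distances and each library alone. Added after seeing the data were the settings for the comparison lists, the FDR count per library and CpG deciles 6 to 10, also for the counts by distance.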

Additional observations from a re-analysis of the deposited data

How the results depend on the processing

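Of 71 alternative values, 54 stayed within 1.5 times the main count or within the spread between replicates; counts and signals have no sign to change. No paired analysis was possible because the series holds 1 group. With a 2000 bp window, 6 regulators were open, with Pax2, Irx5 and Gata3 added, against 59.1% of all coding genes. Pax5 dropped out at 250 bp and with the outermost start only, where 53.6% and 49.5% of all coding genes were open. Lhx3 dropped out among the stronger 50% of peaks, where 48.95% of all coding genes were open. The median signal of the open regulators was 0.838 with the outermost start only and 0.962 to 1.05 with 1 library left out. Regulators with a footprint numbered 4 within 1000 bp, 7 within 2000 bp and 4 in each single library. The share of all coding genes with a footprint was not computed at these settings. Open family relatives numbered 5 with the outermost start only, 5 among the stronger 50% of peaks and 15 in the larger lists. They numbered 13 without replicate 1 and 9 without replicate 2. Of all coding genes, 61% were open in the larger lists, 59% without replicate 1 and 56.0% without replicate 2. Open cortical regulators numbered 14 of 29 with the outermost start only and 16 among the stronger 50% of peaks. In the larger lists and in each single library 22 cortical regulators were open. Regulators with a shared distal peak numbered 18 within 20 kb, 17 of them closed. Their share was then below that of all coding genes (34.0% against 46.2%), not above it (73.6% against 70.1% at 50 kb). The median per regulator was 0 within 20 kb, 3 within 100 kb and 2 in the larger lists. It was 1 without replicate 2 and 2 without replicate 1. Over all coding genes the medians were 0 within 20 kb, 3 within 100 kb, 3 in the larger lists and 2 in each single library. Wider windows and larger lists hold more peaks by construction. A peak missing from a list does not show that a promoter is fully closed, since the callers' thresholds are not known here.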
